A study of Mus musculus with 36 samples.

Results

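Open chromatin was described at the loci of 10 mouse genes of the AP-1 and BATF family, Fos, Fosb, Fosl1, Fosl2, Jun, Junb, Jund, Batf, Batf2 and Batf3. A peak was taken as a member when its interval overlapped the body of one of these genes or the 20 kb to either side, which gave 109 of the 119751 peaks in the deposited count table. Fos had 12 such peaks, Fosb 13, Fosl1 14, Fosl2 14, Jun 3, Junb 8, Jund 12, Batf 13, Batf2 4 and Batf3 16, and all 109 passed the filter on low counts. The cells were dendritic cells grown from the bone marrow of female C57BL/6J mice aged 6 to 8 weeks, cultured with GM-CSF at 15 ng/mL and stimulated for 6 h. ATAC-seq, in which a transposase cuts and tags accessible DNA, was run on 36 libraries, 2 for each of 18 groups, and every group, control included, carried the same GM-CSF culture. The groups were an unstimulated control, 6 single ligands of pattern recognition receptors, 8 pairs and 3 triplets. The single ligands were depleted zymosan (Z), 3',3'-cGAMP (cG), Sendai virus (S), HMW (H), LPS (L) and PAM (P). The pairs were PL, PH, LH, PS, PcG, ScG, ZS and ZcG, and the triplets PLH, PScG and ZScG, each named by its ligands. Ligand doses were not given in the sources used here, and the labels do not say whether the 2 libraries of a group came from separate mice or cultures. P-values therefore measure the spread between these libraries, which may be technical.

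AP-1 is a family of transcription factors built from dimers of basic leucine zipper proteins. JUN proteins pair with each other or with FOS proteins, and FOS proteins need a JUN partner to bind DNA. In myeloid cells stimulated through pattern recognition receptors, kinase cascades of the MAPK type induce Fos and Jun genes and phosphorylate their products, and AP-1 then acts at cytokine genes together with other factors. BATF proteins lack the activation domains of FOS proteins, replace them as partners of JUN proteins, and bind composite sites with IRF4 or IRF8. BATF3 is known for its role in the development of cross-presenting dendritic cells.

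The sequences just upstream of 5 annotated starts are printed because the peaks over these starts behaved differently from one another. The Jun and Batf3 start peaks were mostly lower after stimulation under TMM scaling (for Jun this was lost on total counts), the Junb start peak was mostly higher, and those of Fosl2 and Batf changed little or not at all while other peaks of the same loci opened. Each is the 250 bases before the start, read 5′ to 3′ on the strand of the gene, from RefSeq on GRCm38.p6 (mm10). Capitals mark a match to a searched motif.
Jun chr4:95052223-95052472 (-): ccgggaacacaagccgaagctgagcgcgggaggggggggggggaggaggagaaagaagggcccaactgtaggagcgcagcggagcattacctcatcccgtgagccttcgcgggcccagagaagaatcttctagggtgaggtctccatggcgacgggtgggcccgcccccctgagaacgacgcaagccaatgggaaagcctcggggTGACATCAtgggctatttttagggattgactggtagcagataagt
Junb chr8:84978749-84978998 (-): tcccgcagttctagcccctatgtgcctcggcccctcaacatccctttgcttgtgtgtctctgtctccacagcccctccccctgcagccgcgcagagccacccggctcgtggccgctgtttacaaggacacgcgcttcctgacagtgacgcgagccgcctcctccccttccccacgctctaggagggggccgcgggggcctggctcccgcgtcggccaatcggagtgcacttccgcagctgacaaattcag
Fosl2 chr5:32136222-32136471 (+): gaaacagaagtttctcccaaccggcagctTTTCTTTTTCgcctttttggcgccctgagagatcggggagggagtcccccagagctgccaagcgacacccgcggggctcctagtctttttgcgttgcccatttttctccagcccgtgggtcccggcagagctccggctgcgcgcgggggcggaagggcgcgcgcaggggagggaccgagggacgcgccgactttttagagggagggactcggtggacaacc
Batf chr12:85686470-85686719 (+): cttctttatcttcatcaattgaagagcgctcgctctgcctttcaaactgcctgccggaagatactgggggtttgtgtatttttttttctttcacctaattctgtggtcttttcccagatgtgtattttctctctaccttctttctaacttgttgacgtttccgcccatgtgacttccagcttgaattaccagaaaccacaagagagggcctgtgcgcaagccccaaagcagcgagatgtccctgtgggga
Batf3 chr1:191098164-191098413 (+): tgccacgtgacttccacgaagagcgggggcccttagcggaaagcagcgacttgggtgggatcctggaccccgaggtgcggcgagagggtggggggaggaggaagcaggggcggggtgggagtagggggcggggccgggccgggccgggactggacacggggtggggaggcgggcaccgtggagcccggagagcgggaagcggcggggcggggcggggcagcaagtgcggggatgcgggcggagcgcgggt

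RefSeq promoter entries matched 8 of the 10 genes, all but Fosl1 and Batf2. In the 250 bases before the start, both strands were searched for 6 motifs. The AP-1 site TGANTCA was found in none of the 8 and in 6.75% of all 32851 promoters, and the cyclic AMP response element TGACGTCA in none and in 1.55%. The related octamer TGACATCA lay 45 to 38 bases before the Jun start and in 2.93% of promoters. An interferon-response-like motif, a pair of GAAA separated by 2 free bases, lay 221 to 212 bases before the Fosl2 start, on the opposite strand, and in 2.98% of promoters. One exact form of the serum response element (in 0.0609% of promoters) and one form of the NF-kappaB site (in 0.356%) were in none of the 8. None of these 6 motifs is contained in another, and a missing match says only that these letters are not in this window.

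Libraries held 19097027 to 39977088 counts, of which 8181254 to 21985891 lay outside the mitochondrial genome. One peak over the mitochondrial genome held 44.1% to 63.1% of the counts and was left out. Its mean share was higher in the groups control, Z, ZcG, ScG and ZScG (58.3% to 63.0%) than in the other 13 groups (44.4% to 54.5%). By library the sets overlap, since 1 ZS library, at 58.1%, lay above the lowest ScG and ZScG libraries, at 57.3% and 57.9%, and the other ZS library was at 51.0%. For those 13 stimulations, effects against control cannot be told apart from what came with that share, whereas Z, ZcG, ScG and ZScG were compared with control within the high-share set. All groups that contain P or L were in the low-share set. Levels are given as CPM, the usual scaling of counts to a fixed library size, here of the counts outside the mitochondrial genome after TMM scaling. Start peaks were present for all 8 dendritic and all 5 macrophage marker genes, with a summed control level of 181 and 116 CPM, and group means from 169 to 236 and from 109 to 155 CPM. Among markers of other cells, only S100a8 of 5 neutrophil genes (7.25 to 18.9 CPM), Cd4 of 5 T cell genes (3.93 to 7.64), Ms4a1 of 4 B cell genes (1.26 to 7.90) and Klf1 of 3 erythroid genes (9.98 to 16.2) had a start peak, and their part in the results was not tested. In these bulk samples, a change in the share of cells with an open site and a change in openness per cell cannot be told apart.

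At these loci, called differences from control were more often higher than lower under TMM scaling. The accessibility of 76 of the 109 peaks differed somewhere among the 17 stimulations and control (edgeR quasi-likelihood F-test, adjusted p under 0.05), against 62.5% of all 119464 tested peaks. Against control, 51 peaks were higher in at least 1 stimulation, 29 were lower in at least 1, 5 were among both, and 34 were called in neither direction. Over all 119464 tested peaks, 41816 were higher somewhere, 40712 lower somewhere, 2942 among both and 39878 in neither. That made 353 higher and 136 lower calls in 1853 tests, all of which share the same 2 control libraries. Higher calls made up 19.1% and lower calls 7.34% of the tests at the members, against 13.0% and 12.3% over all peaks. Without control replicate 1, 211 of the higher and 73 of the lower calls were kept, and without control replicate 2, 260 and 94. Batf3 stood on the closing side with 9 of 16 peaks lower in some stimulation and 1 higher, Fosl1 on the opening side with 9 of 14 higher and 0 lower. For Jun, 2 of 3 peaks were lower somewhere and none higher. The 3 calls of Jun peak 3 were lost without control replicate 2.

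By stimulation, P alone gave 13 of 109 peaks higher and 8 lower, against 11.1% and 9.45% of all peaks. LPS gave 21 of 109 peaks higher and 7 lower, against 11.2% and 11.1% of all peaks. H gave 11 of 109 peaks higher and 4 lower, against 5.21% and 5.46% of all peaks. For those ligands the share of members that were higher lay near or above that of all peaks, and the share that were lower lay below it. Sendai virus gave 22 of 109 peaks higher and 7 lower, against 14.1% and 13.8% of all peaks. With cG there were 18 of 109 peaks higher and 2 lower, against 11.6% and 11.6% of all peaks. Zymosan alone gave 6 of 109 peaks higher and 1 lower, against 4.16% and 1.75% of all peaks. Zymosan thus had the fewest calls of the single ligands at these loci as it had genome-wide. The pair PL gave 23 of 109 peaks higher and 10 lower, against 13.8% and 13.5% of all peaks. PH gave 13 of 109 peaks higher and 13 lower, against 13.6% and 12.8% of all peaks. LH gave 14 of 109 peaks higher and 11 lower, against 11.3% and 10.5% of all peaks. In PH and LH members were lower at shares near those of all peaks. PS gave 24 of 109 peaks higher and 11 lower, against 17.3% and 16.2% of all peaks. PcG gave 27 of 109 peaks higher and 9 lower, against 16.8% and 16.2% of all peaks. ScG gave 19 of 109 peaks higher and 10 lower, against 14.4% and 13.3% of all peaks. ZS gave 32 of 109 peaks higher and 6 lower, against 14.4% and 14.0% of all peaks. The ZS members were higher at 29.4% and lower at 5.5%. ZcG gave 16 of 109 peaks higher and 8 lower, against 11.4% and 10.2% of all peaks. Among the triplets, PLH gave 31 of 109 peaks higher and 11 lower, against 14.9% and 14.7% of all peaks. PScG gave 36 of 109 peaks higher and 10 lower, against 19.0% and 18.1% of all peaks. ZScG gave 27 of 109 peaks higher and 8 lower, against 16.2% and 16.1% of all peaks. PScG had the most higher calls, 33% of members. The median log2 fold change of the members was 0.41 with PScG and 0.53 with ZScG, against 0.04 and 0.04 over all peaks. These directions are relative to TMM scaling. Scaled by total counts outside the mitochondrial genome, the median of all peaks moved to between -0.04 (ZcG) and 0.45 (L) on the log2 scale, and the members gave 575 higher and 48 lower calls in place of 353 and 136. In that scaling the higher and lower counts were 26 and 2 with P, 45 and 1 with L, 22 and 0 with H, 45 and 1 with S, 36 and 1 with cG, 6 and 1 with Z, 35 and 5 with PL, 30 and 1 with PH, 27 and 2 with LH. For the rest they were 50 and 3 with PS, 48 and 2 with PcG, 25 and 7 with ScG, 39 and 1 with ZS, 14 and 9 with ZcG, 45 and 3 with PLH, 53 and 3 with PScG and 29 and 6 with ZScG. The shares of all peaks called in that scaling are not given. These counts include the shift of the median of all peaks, so they cannot be read as a trait of the members. Leaving out 1 library lowered several counts by over 1.5 times, to 13 of 21 for P (without control replicate 1), 14 of 28 for L (without L replicate 1), 2 of 15 for H (without H replicate 1), 13 of 29 for S (without control replicate 1), 13 of 20 for cG (without control replicate 1), 4 of 7 for Z (without control replicate 2), 15 of 26 for PH (without control replicate 1), 12 of 25 for LH (without control replicate 1), 18 of 29 for ScG (without control replicate 1), 21 of 38 for ZS (without control replicate 1), 12 of 24 for ZcG (without ZcG replicate 2), 29 of 46 for PScG (without PScG replicate 1) and 23 of 35 for ZScG (without control replicate 1).

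**Figure D1:**
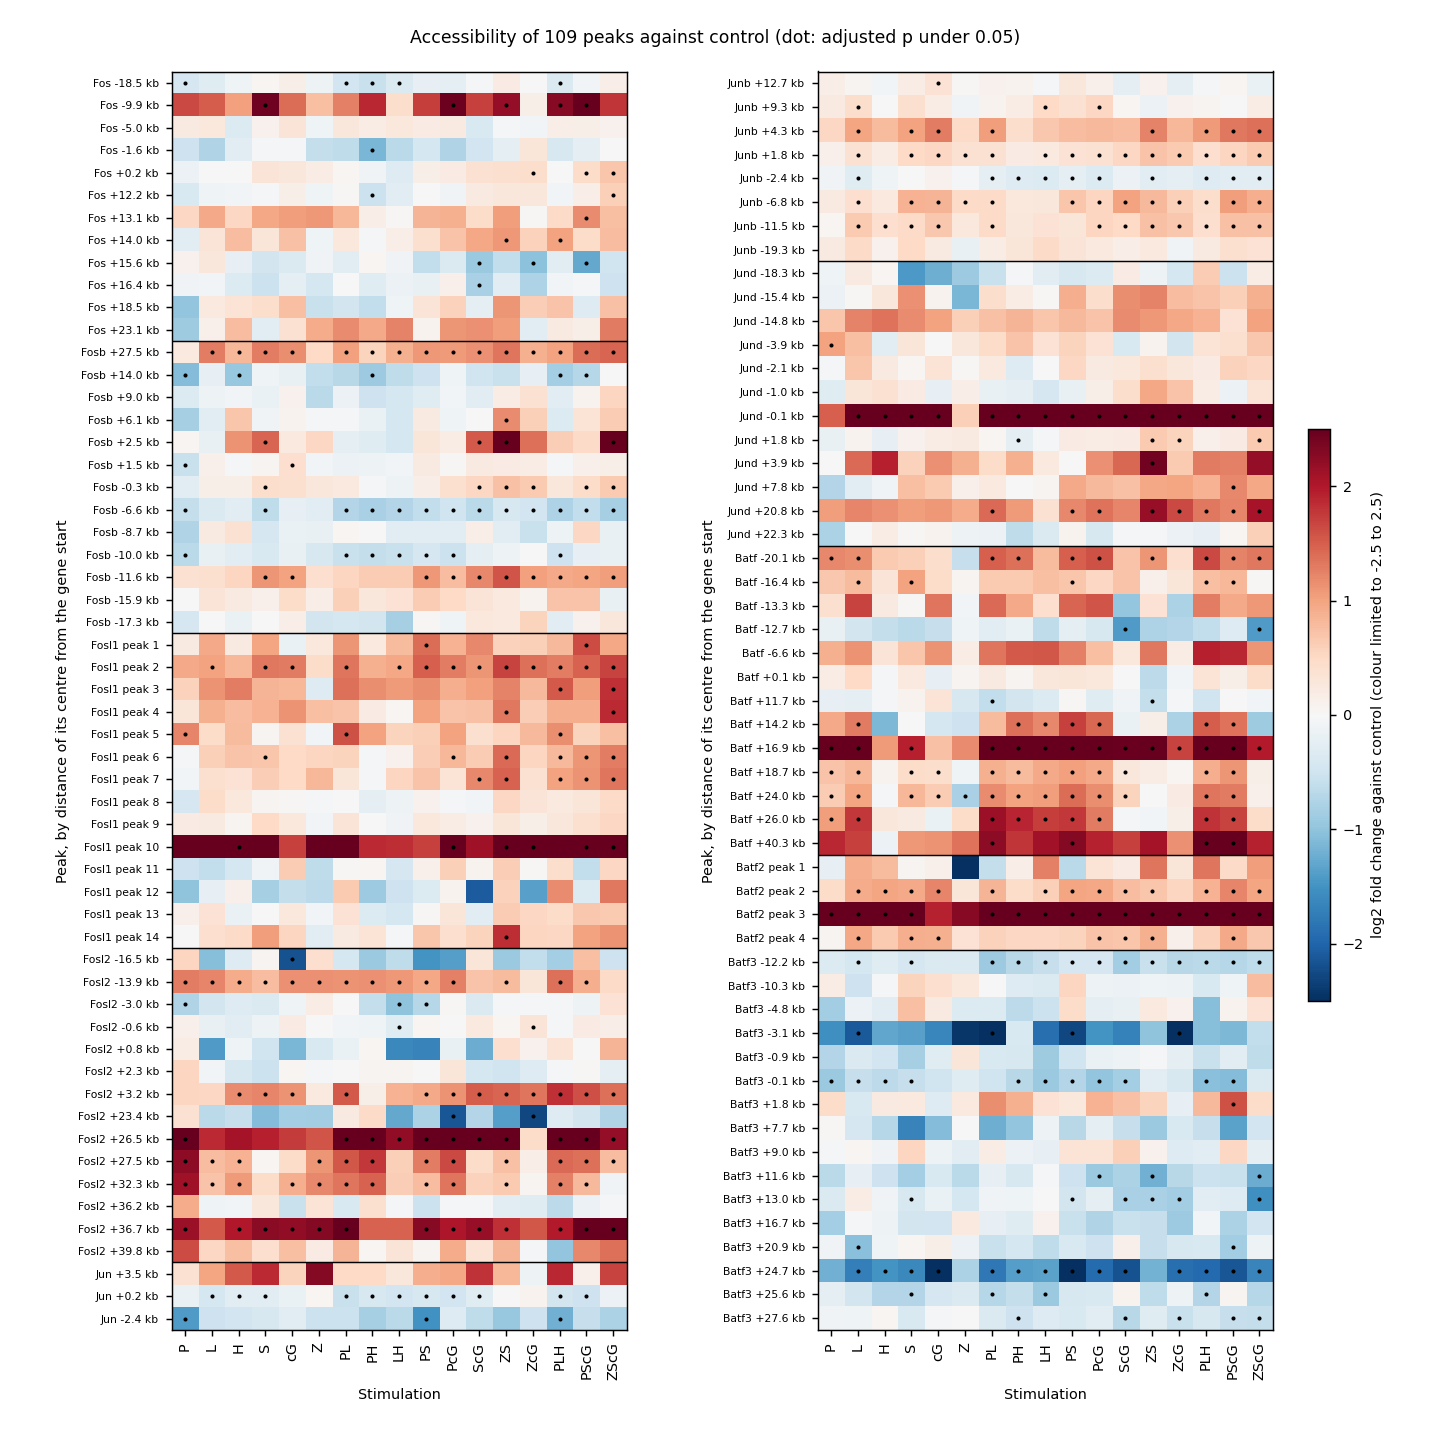
Log2 fold change against control of every member peak (rows, by kb from the gene start or by peak number) in the 17 stimulations (columns), as colour limited to -2.5 to 2.5, with dots for adjusted p under 0.05. The lower Batf rows are high in the columns with P or L, the Fosl1 rows are mostly high and the Batf3 rows mostly low, under TMM scaling.

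The clearest response lay in the body and 3′ flank of Batf, which encodes a BATF protein induced in activated lymphoid and myeloid cells. At 5 consecutive peaks, 14.23 to 26.02 kb downstream of the start, libraries with P or LPS were more open than control, while the start peak at chr12:85686436-85687253 passed the threshold in no stimulation. Peaks are numbered along the chromosome within each locus. Peak 9, at chr12:85703304-85703941 in the gene body, 16.9 kb from the start, had the lowest F-test p of all members (1.5e-48). It had 0.765 and 0.386 CPM in the control libraries, 6.87 and 4.04 with P, 6.22 and 8.25 with L, 1.78 and 0.431 with H, 2.75 and 1.66 with S, 1.11 and 0.788 with cG and 2.10 and 0.629 with Z. With the pairs it had 7.25 and 10.4 with PL, 6.64 and 7.81 with PH, 7.98 and 5.55 with LH, 12.2 and 13.0 with PS, 9.18 and 9.88 with PcG, 2.79 and 3.61 with ScG, 2.37 and 4.06 with ZS and 1.45 and 2.23 with ZcG. The triplets gave 8.74 and 8.48 with PLH, 13.2 and 14.4 with PScG and 2.68 and 1.79 with ZScG. Every library with P or LPS lay above every library without them with 1 exception, a ZS library at 4.06 CPM beside the lower P library at 4.04. The log2 fold change was 3.25 ± 0.43 (SE), adjusted p = 1.3e-10 with P, 3.67 ± 0.41 (SE), adjusted p = 6.1e-14 with LPS and 4.59 ± 0.39 (SE), adjusted p = 3.2e-22 with PScG. Without P or LPS it also rose, by less, with S (1.94, adjusted p = 7.2e-04), ScG (2.47, adjusted p = 9.9e-06), ZS (2.51, adjusted p = 7.4e-06), ZcG (1.69, adjusted p = 0.013) and ZScG (1.99, adjusted p = 0.0013), but not past the threshold with H, cG or Z. The control count was 11 over both libraries, so the size of these folds is imprecise. Without control replicate 2, S and ZcG were no longer called, at 1.51 (adjusted p = 0.052) and 1.27 (adjusted p = 0.17), nor was ZScG without its replicate 1, at 1.65 (adjusted p = 0.061). ZcG was also not called without ZcG replicate 2, at 1.35 (adjusted p = 0.19).

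Batf peak 10, at chr12:85704475-85706349, is the broadest and most open of the locus and responded less steeply. It had 31.6 and 30.4 CPM in the control libraries, 53.8 and 48.3 with P, 54.8 and 54.9 with L, 32.5 and 33.4 with H, 43.0 and 42.4 with S, 38.4 and 45.4 with cG and 28.1 and 29.5 with Z. Among the pairs it had 59.8 and 55.1 with PL, 55.5 and 52.3 with PH, 60.2 and 58.7 with LH, 62.7 and 64.1 with PS, 59.9 and 60.1 with PcG, 36.6 and 38.8 with ScG, 36.1 and 33.9 with ZS and 30.3 and 33.4 with ZcG. The triplets gave 59.4 and 56.4 with PLH, 60.4 and 72.8 with PScG and 32.9 and 36.3 with ZScG. All 18 libraries with P or LPS lay above all 18 without (48.3 to 72.8 against 28.1 to 45.4 CPM). That split was chosen after the values were seen, and 0.34% of all peaks (406 of 119464) separated in the same way. Of the groups without P or LPS, H, S, cG and ZS belong to the low-share set, and their libraries had 32.5 to 45.4 CPM. The others are in the high-share set, and the part of that share was not tested. The rise was 0.72 ± 0.11 (SE), adjusted p = 1.9e-08 with P and 0.94 ± 0.11 (SE), adjusted p = 2.1e-13 with LH. Sendai virus and cG alone raised the peak to a smaller extent, 0.46 (adjusted p = 3.3e-04) and 0.44 (adjusted p = 0.0011). The cG call was lost without cG replicate 2, at 0.31 (adjusted p = 0.099).

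Peak 8, at chr12:85700630-85701280, was outside the naming rule and is given because it was the other member in which the 18 libraries with P or LPS (2.65 to 5.77 CPM) did not overlap the 18 without (0.276 to 1.97 CPM). It was called higher in 7 stimulations, each with P or LPS, of which 7 remained without control replicate 1 and 2 without control replicate 2. Peak 11, 24.03 kb from the start at chr12:85710256-85711238 and 1169 bp past the gene end, had 11.3 ± 1.55 CPM (SD, n = 2, as for all means below) in control, 29.7 ± 0.997 with PS and 6.35 ± 1.55 with Z. It rose with PS (1.39 ± 0.15 SE, adjusted p = 7.9e-15) and fell with zymosan alone (-0.81 ± 0.20 SE, adjusted p = 0.0029), the one lower call among these 5 peaks, which was lost without Z replicate 1, at -0.61 (adjusted p = 0.14), or control replicate 2, at -0.66 (adjusted p = 0.11). Peak 12, also chosen after its values were seen, had 2.38 ± 0.588 CPM in control and 10.5 ± 1.47 with PL, and its 9 higher calls were the 9 groups with P or LPS. In the 8 stimulations without P or LPS its log2 fold change lay between -0.16 with cG and 0.46 with Z, none called. The start peak stayed between -0.66 and 0.49, with 3.17 ± 1.08 CPM in control and 3.48 ± 0.103 with PScG.

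**Figure D2:**
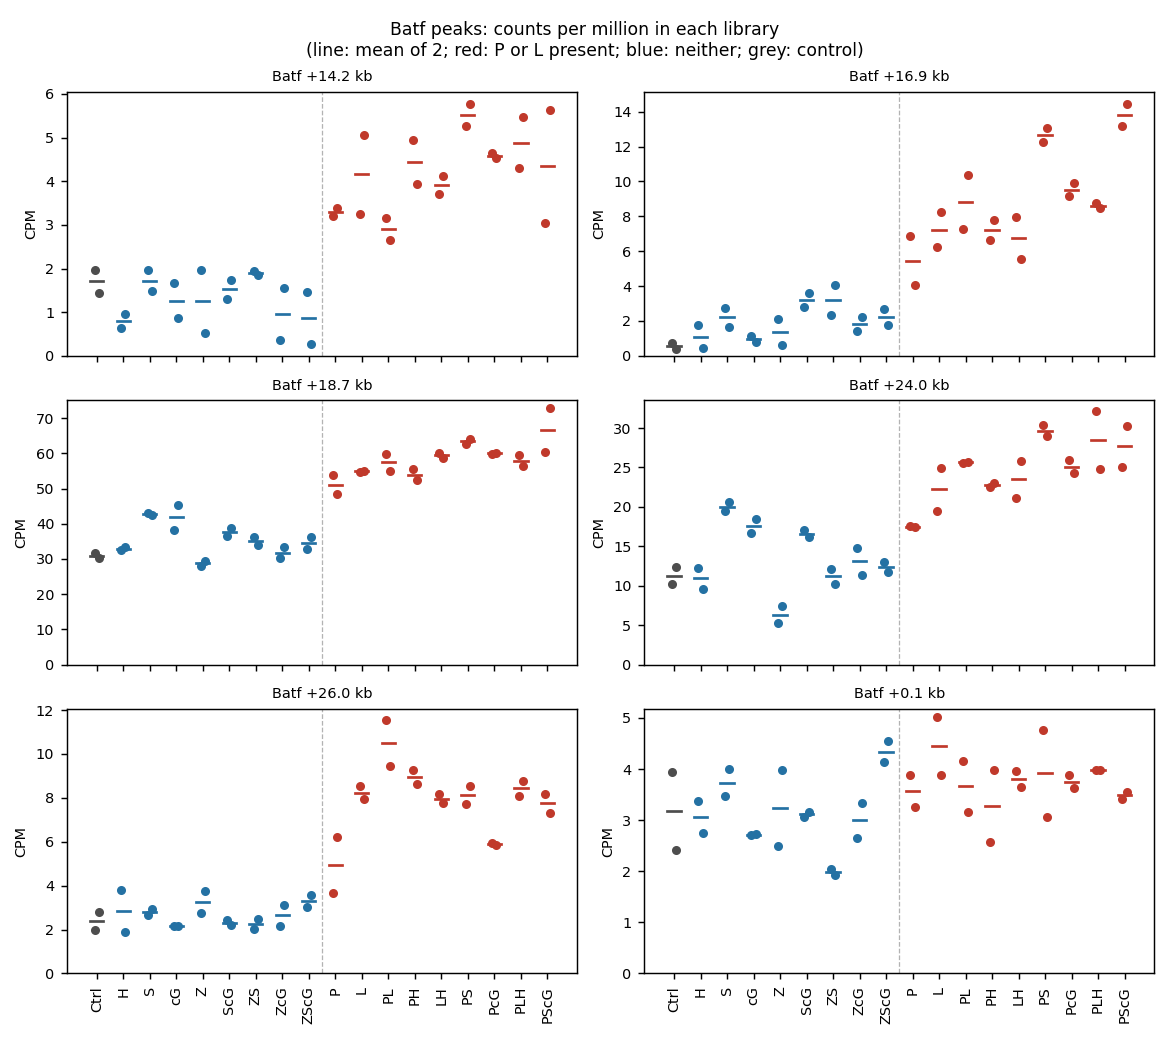
CPM of 6 Batf peaks, named by kb from the start, in each of the 36 libraries, by group. Points are libraries and lines the mean of 2, red for groups with P or L, blue for groups with neither and grey for control. At +14.2 and +18.7 kb (peaks 8 and 10) the red points do not overlap the others, and in the start peak they do.

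Batf2, which encodes a BATF protein known as an interferon-inducible gene, had 3 of 4 peaks higher in some stimulation and none lower. Its strand was not available, so the ends of the gene are named by coordinate. Peak 4, over its lower end at chr19:6164062-6164823, had 3.61 and 4.73 CPM in the control libraries and 9.54 and 7.06 with LPS. The peak rose in 7 stimulations, by 0.98 ± 0.25 (SE), adjusted p = 0.0019 with LPS. Of the 7 calls, 1 remained without control replicate 1 and 7 without control replicate 2, and the LPS value was 0.81 (adjusted p = 0.066) without control replicate 1 and 0.75 (adjusted p = 0.074) without L replicate 1. Peak 2, 6664 bp outside the gene at chr19:6157005-6157733, had 7.21 and 6.56 CPM in control, 13.0 and 13.4 with S, 13.9 and 17.99 with cG and 17.2 and 9.74 with H. All 34 stimulated libraries lay above both control libraries, and 13 stimulations were called, the steepest being cG (1.22 ± 0.20 SE, adjusted p = 5.3e-07). The H value of 0.99 was lost without H replicate 1, at 0.50 (adjusted p = 0.26). A split into any ligand and none puts 3.83% of all peaks wholly above control, and 4 members, these being Batf2 peaks 2 and 3 and Junb peaks 4 and 6. Peak 3 had 2 counts in control, and with H its level was 11.1 times the control level (95% counting interval 2.81 to 95.4). Peak 1 was called in no stimulation.

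The Batf3 locus moved the other way. The start peak at chr1:191097806-191098905 was lower in 11 stimulations and higher in none. It had 13.4 and 13.2 CPM in control, 8.16 and 5.92 with P, 8.20 and 9.65 with L, 8.19 and 8.70 with H, 9.62 and 8.18 with S, 10.3 and 8.60 with cG and 10.2 and 11.2 with Z. Every single-ligand library lay below both control libraries, which was not counted over all peaks. The steepest log2 change against control was with PScG, at -1.08 ± 0.22 (SE), adjusted p = 1.9e-05. The PScG libraries had 6.29 and 6.33 CPM, above the lower P library. Z, ZcG, ZS and ZScG did not pass the threshold, at -0.31 (adjusted p = 0.46), -0.41 (adjusted p = 0.17), -0.28 (adjusted p = 0.33) and -0.36 (adjusted p = 0.2). ScG, in the high-share set with control, did (-0.85 ± 0.22 SE, adjusted p = 0.0014). On total counts the start peak stayed below control, at -0.78 to -0.08, with 0 higher and 6 lower calls. Under TMM scaling, of the 11 calls, 7 remained without control replicate 1 and 8 without control replicate 2.

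The Batf3 peak with the lowest F-test p was peak 11, 1985 bp past the gene end at chr1:191110928-191111974. It had 25.1 and 24.3 CPM in the control libraries, 20.4 and 17.9 with P, 27.1 and 28.8 with L, 26.4 and 19.9 with H, 18.8 and 18.8 with S, 22.3 and 21.6 with cG and 18.9 and 17.5 with Z. With the pairs it had 27.0 and 18.8 with PL, 22.9 and 22.8 with PH, 26.2 and 23.3 with LH, 17.8 and 18.3 with PS, 20.2 and 22.1 with PcG, 14.0 and 14.2 with ScG, 16.7 and 11.5 with ZS and 13.9 and 13.2 with ZcG. The triplets gave 21.4 and 19.9 with PLH, 21.4 and 18.5 with PScG and 8.83 and 8.27 with ZScG. Both ZScG libraries lay below all others, and the next 6 libraries were those of ZcG, ScG and ZS. That order was noticed in the values, and its share over all peaks was not counted. The fall was -1.53 ± 0.17 (SE), adjusted p = 3.6e-14 with ZScG, -0.87 ± 0.16 (SE), adjusted p = 4.3e-06 with ZcG and -0.81 ± 0.15 (SE), adjusted p = 6.9e-06 with ScG, and these 3 stimulations were compared with control within the high-share set. S (-0.40, adjusted p = 0.025), PS (-0.45, adjusted p = 0.007) and ZS (-0.82, adjusted p = 6.3e-06) were also lower, and the other stimulations were not called. The S call was lost with DESeq2, on total counts and without any 1 of the 4 libraries, down to -0.03 (adjusted p = 0.89) on total counts, and PS gave -0.05 (adjusted p = 0.83) on total counts and -0.41 (adjusted p = 0.069) without control replicate 1. Peak 14, 24.68 kb from the start within the non-coding gene Gm46178, had 4.15 and 3.67 CPM in control and 0.439 to 2.76 CPM in the 34 stimulated libraries, and was lower in 14 stimulations. Peak 1, upstream and nearest to Nsl1, had 27.8 and 22.8 CPM in control against 10.6 to 21.2 elsewhere and was lower in 13. These 2 peaks and Fosb peak 8 were the 3 members that lay wholly below control in every stimulated library, as did 5.43% of all peaks. On total counts peak 14 had 0 higher and 11 lower calls, peak 1 0 higher and 4 lower calls and peak 11 1 higher and 4 lower calls, with peak 11 at -1.46 to 0.61. Of the 14 calls of peak 14, 9 remained without control replicate 1 and 12 without control replicate 2, and of the 13 of peak 1, 6 remained without control replicate 1 and 13 without control replicate 2.

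Among the FOS genes, Fosl2, which encodes the FOS protein also called FRA-2, had the 2 peaks with the lowest F-test p, and both were most open with PAM alone. Peak 10, 5423 bp past the gene end at chr5:32163263-32164604, led the FOS genes by F-test p (7.2e-29). It had 3.50 and 4.53 CPM in the control libraries, 16.3 and 21.8 with P, 7.28 and 6.58 with L, 8.58 and 5.95 with H, 4.65 and 3.75 with S, 6.13 and 4.94 with cG and 6.96 and 10.2 with Z. Among the pairs it had 13.6 and 9.98 with PL, 14.5 and 12.9 with PH, 6.62 and 5.55 with LH, 10.2 and 9.57 with PS, 12.0 and 13.4 with PcG, 4.09 and 7.21 with ScG, 4.84 and 8.39 with ZS and 3.26 and 5.68 with ZcG. The triplets gave 9.59 and 12.1 with PLH, 11.2 and 9.96 with PScG and 5.48 and 8.41 with ZScG. Both P libraries lay above every other library, and the next 3 groups by mean, PH, PcG and PL, also contain P. This order was read from the values, and how many of all peaks share it was not counted. The rise with P was 2.24 ± 0.24 (SE), adjusted p = 4.4e-15, and those with PH and PcG were 1.76 ± 0.24 and 1.65 ± 0.24. LPS, H and zymosan alone raised it by 0.77 (adjusted p = 0.017), 0.86 (adjusted p = 0.016) and 1.10 (adjusted p = 0.0028), whereas S and cG did not pass the threshold, at 0.05 (adjusted p = 0.91) and 0.45 (adjusted p = 0.23). The calls for LPS, H and Z were lost without control replicate 1, at 0.61 (adjusted p = 0.19), 0.71 (adjusted p = 0.2) and 0.93 (adjusted p = 0.094). They were also lost without L replicate 1, H replicate 1 and Z replicate 2, at 0.70 (adjusted p = 0.099), 0.56 (adjusted p = 0.34) and 0.77 (adjusted p = 0.21).

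Peak 11, 10565 bp past the gene end at chr5:32168405-32169120, was also highest with P. It had 5.46 and 4.24 CPM in control, 18.5 and 23.4 with P, 11.6 and 12.9 with PL, 6.52 and 9.73 with PS and 4.69 and 4.41 with ZScG. Its log2 fold change with P was 2.11 ± 0.22 (SE), adjusted p = 3.0e-15. Peak 7, inside the gene, followed another order, with no call for P or LPS alone, at 0.55 (adjusted p = 0.38) and 0.51 (adjusted p = 0.4), and its highest value with PLH (1.82 ± 0.37 SE, adjusted p = 3.5e-05). Without control replicate 2 that value was 2.61. The start peak at chr5:32134809-32136900, one of the most open of the members at 46.2 ± 2.47 CPM in control, was called higher with ZcG (0.32 ± 0.11 SE, adjusted p = 0.018) and lower with LH (-0.30 ± 0.11 SE, adjusted p = 0.028) and in no other stimulation. Both calls were lost on total counts, at 0.27 (adjusted p = 0.082) and 0.00 (adjusted p = 0.98), where the peak had 7 higher and 0 lower calls. The ZcG value was 0.27 (adjusted p = 0.15) without control replicate 2 and 0.30 (adjusted p = 0.11) without ZcG replicate 1, and the LH value -0.23 (adjusted p = 0.25) without control replicate 1 and -0.24 (adjusted p = 0.22) without LH replicate 2, neither called.

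At their starts, the immediate-early genes Fos and Fosb were called higher in 3 and 6 stimulations and lower in none, under TMM scaling. The Fos start peak at chr12:85473310-85474845 had 15.0 and 15.6 CPM in control, 25.7 and 23.9 with ZScG and 13.7 and 10.5 with LH. It was higher with ZcG (0.44 ± 0.16 SE, adjusted p = 0.036), PScG (0.46 ± 0.16 SE, adjusted p = 0.013) and ZScG (0.70 ± 0.16 SE, adjusted p = 2.3e-04) and lower in none. The ZcG call was lost with DESeq2, on total counts, without either control library and without ZcG replicate 2, at 0.30 (adjusted p = 0.35). The PScG value was 0.45 (adjusted p = 0.074) without control replicate 1 and 0.37 (adjusted p = 0.12) without PScG replicate 1. Upstream, Fos peak 1 at chr12:85454809-85455950 had 34.2 ± 0.255 CPM in control and was lower in 5 groups, all with P or LPS, the steepest being PH (-0.55 ± 0.12 SE, adjusted p = 1.1e-04). Of these 5 calls, 2 remained without control replicate 1 and 3 without control replicate 2. Downstream, peak 6 rose with ZScG (0.60, adjusted p = 0.0088) and fell with PH (-0.54, adjusted p = 0.026), and peak 9 was lower with ScG, ZcG and PScG, down to a log2 fold change of -1.27. The 2 control libraries of peak 9 differed widely, 2.84 and 6.08 CPM. Without control replicate 2 all 3 calls of peak 9 were lost, at -0.61 (adjusted p = 0.33) with PScG, -0.27 (adjusted p = 0.73) with ScG and -0.36 (adjusted p = 0.66) with ZcG. The calls of peak 6 were lost too, ZScG at 0.58 (adjusted p = 0.057) without control replicate 1 and 0.49 (adjusted p = 0.11) without ZScG replicate 2, and PH at -0.21 (adjusted p = 0.48) on total counts, -0.54 (adjusted p = 0.099) without control replicate 1, -0.51 (adjusted p = 0.13) without control replicate 2 and -0.31 (adjusted p = 0.37) without PH replicate 2. On total counts the Fos start peak had 9 higher and 0 lower calls, while peak 1 had 3 higher and 0 lower calls and a range of -0.22 to 0.49, so its lower calls are relative to TMM scaling.

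The Fosb start peak at chr7:19309859-19310751 had 10.1 and 11.7 CPM in control and 16.99 and 19.1 with ZS. Under TMM scaling it rose in 6 stimulations, all with S or cG, by 0.73 ± 0.18 (SE), adjusted p = 6.6e-04 with ZS. Of these 6 calls, 1 remained without control replicate 1 and 5 without control replicate 2. In the gene body, peak 5 was nearly closed in control (0.219 and 1.45 CPM, 17 counts) and opened with ZS (3.87 and 6.08 CPM, 2.53 ± 0.50 (SE), adjusted p = 2.2e-05), ZScG, ScG and S. The 4 groups called have no P or LPS, and with PS and PScG it had 0.941 and 1.17 and 1.44 and 0.996 CPM. Of the 4 calls, 2 remained without control replicate 1 and 4 without control replicate 2. Peak 8, 6.62 kb upstream, had 27.6 and 27.3 CPM in control and 12.5 to 27.2 CPM elsewhere, and was lower in 13 stimulations, the steepest being ZScG (-0.83 ± 0.16 SE, adjusted p = 7.2e-06). Peak 1, higher in 15 stimulations, lies over the start of Rtn2. On total counts peak 8 ranged from -0.76 to 0.14, with 0 higher and 7 lower calls. The start peak then ranged from 0.05 to 0.93, with 12 higher and 0 lower calls, not limited to groups with S or cG. The fold of peak 5 with ZS was 1.79 (adjusted p = 0.019) without control replicate 1 and 4.46 (adjusted p = 1.2e-05) without control replicate 2.

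Fosl1, whose product FRA-1 is a FOS protein without a strong activation domain, had only opening calls, 40 in 238 tests, of which 21 were kept without control replicate 1 and as many without control replicate 2. Peak 6, over the lower end of the gene at chr19:5447435-5448243, had 4.04 and 3.96 CPM in control, 10.1 and 11.3 with ZS and 10.2 and 7.19 with PScG. It rose in 6 stimulations, by 1.42 ± 0.27 (SE), adjusted p = 5.7e-06 with ZS, and P alone gave -0.02 (adjusted p = 0.97). Of the 6 calls, 4 remained without control replicate 1 and 3 without control replicate 2. Peak 7 in the gene rose in 5, all of them combinations, by 1.47 (adjusted p = 0.0016) with ZS, and all 5 calls were lost without control replicate 2, ZS at 1.20 (adjusted p = 0.055). Peak 2, 15197 bp outside the gene and nearest to AI837181, rose in 13, of which 3 remained without control replicate 1 and 13 without control replicate 2. Peak 8, over the start of Ccdc85b, was called in none although its F-test was (1.5e-04, adjusted). Peak 10, outside the naming rule and inside Fibp, had 1 count in control, and with ZS its level was 24.2 times the control level (95% counting interval 3.96 to 994).

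**Figure D3:**
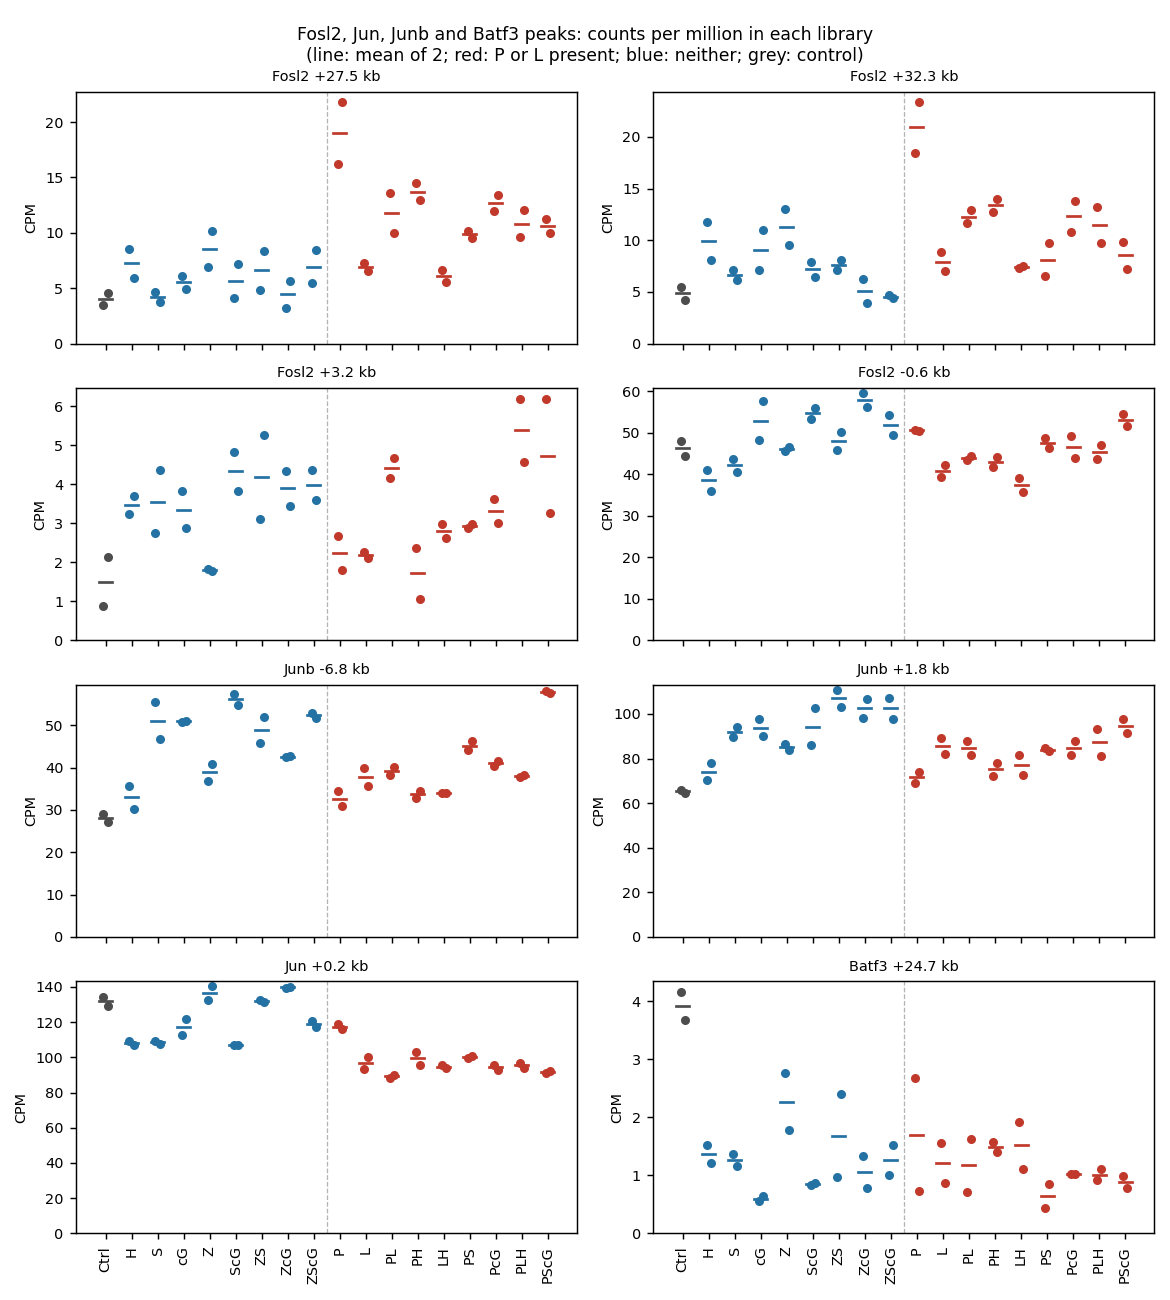
CPM of 8 peaks of Fosl2, Jun, Junb and Batf3, named by kb from the start, in each of the 36 libraries, by group. Points are libraries and lines the mean of 2, red for groups with P or L, blue for groups with neither and grey for control. The P points stand highest at Fosl2 +27.5 and +32.3 kb (peaks 10 and 11), and both control points stand above all others at Batf3 +24.7 kb (peak 14).

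The JUN genes moved differently from one another. The Jun start peak, 4378 bp wide at chr4:95049824-95054201 and also over the non-coding gene Junos, had the highest level of all members by CPM, and per kb (25.1 CPM per kb over all libraries) was second to Fos peak 1 (27.3). It had 134 and 129 CPM in the control libraries, 119 and 116 with P, 93.5 and 100.1 with L, 109 and 107 with H, 109.5 and 108 with S, 113 and 122 with cG and 133 and 140.5 with Z. With the pairs it had 88.5 and 89.7 with PL, 103 and 95.8 with PH, 95.7 and 93.8 with LH, 99.4 and 101 with PS, 95.7 and 92.8 with PcG, 107 and 107 with ScG, 132 and 131 with ZS and 139 and 140.1 with ZcG. The triplets gave 96.9 and 94.1 with PLH, 91.0 and 92.1 with PScG and 121 and 117 with ZScG. Every library with P or LPS lay below both control libraries, and those with zymosan but no P or LPS were at 117 to 140.5 CPM. How many of all peaks do the same was not counted. The peak was lower in 11 stimulations, from -0.28 ± 0.08 (SE), adjusted p = 0.0058 with S to -0.57 ± 0.08 (SE), adjusted p = 1.1e-08 with PL. P and cG alone, at -0.17 (adjusted p = 0.15) and -0.17 (adjusted p = 0.13), and all 4 groups with zymosan did not pass. Within the high-share set ScG was lower (-0.30 ± 0.08 SE, adjusted p = 0.0035) and Z, ZcG and ZScG were not called (0.05, 0.08 and -0.15). The peak was thus lower in 10 of 13 stimulations of the low-share set and in 1 of 4 of the high-share set, and the part of that share in the result was not tested. Jun peak 3, just upstream, was lower in 3 stimulations and peak 1 was not called. On total counts the Jun start peak ranged from -0.25 to 0.20 over the 17 stimulations, with 0 higher and 1 lower calls, so that its fall holds only relative to the other peaks. There ScG gave -0.23 (adjusted p = 0.057). Under TMM scaling the ScG call was lost without control replicate 1, at -0.25 (adjusted p = 0.068), as was that of S, at -0.23 (adjusted p = 0.096), which was also lost without S replicate 2, at -0.27 (adjusted p = 0.051).

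Junb, which encodes a JUN protein that restrains JUN at many targets, opened in most groups, and further with Sendai virus or cG than with P or H. The start peak, 4538 bp wide at chr8:84974694-84979231, covers the whole gene and overlaps Prdx2. It had 66.0 and 64.6 CPM in control, 89.8 and 94.2 with S, 97.7 and 90.0 with cG and 111 and 103 with ZS. All stimulated libraries lay above both control libraries, and 14 stimulations were called, the steepest being ZS (0.71 ± 0.09 SE, adjusted p = 1.1e-10). Peak 6, 6.83 kb upstream at chr8:84984510-84986642 and nearer to Hook2 than to Junb, had the second lowest F-test p of the JUN genes (3.0e-28). It had 29.0 and 27.2 CPM in the control libraries, 34.5 and 30.8 with P, 39.9 and 35.7 with L, 35.6 and 30.2 with H, 55.5 and 46.7 with S, 50.8 and 50.9 with cG and 36.9 and 40.9 with Z. Among the pairs it had 38.2 and 40.2 with PL, 32.8 and 34.5 with PH, 34.0 and 33.9 with LH, 44.0 and 46.3 with PS, 40.4 and 41.6 with PcG, 57.4 and 54.9 with ScG, 45.9 and 52.0 with ZS and 42.5 and 42.7 with ZcG. The triplets gave 37.7 and 38.2 with PLH, 58.0 and 57.6 with PScG and 53.0 and 51.7 with ZScG. The 16 highest libraries all had S or cG, an order read from the values and not counted over all peaks. P, H, PH and LH were not called. The rise was 0.86 ± 0.11 (SE), adjusted p = 3.0e-11 with S, 0.86 ± 0.11 (SE), adjusted p = 8.0e-11 with cG and 1.04 ± 0.11 (SE), adjusted p = 1.7e-15 with PScG. Between these, peak 5, 2.44 kb upstream, was lower in 10 stimulations, the steepest being PcG (-0.35 ± 0.09 SE, adjusted p = 0.0011), from 92.0 ± 1.78 CPM in control. Of these 10 calls, 1 remained without control replicate 1 and 8 without control replicate 2. Peak 7, over the Hook2 start, rose in 12, of which 6 remained without control replicate 1 and 12 without control replicate 2. On total counts the start peak and peak 6 kept their direction (17 higher and 0 lower calls and 17 higher and 0 lower calls), whereas peak 5 had 2 higher and 1 lower calls and a range of -0.29 to 0.44.

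Jund, which encodes the JUN protein present at a steady level in many cells, had its open chromatin over the gene body. Peak 8, 2927 bp wide at chr8:70698121-70701047, covers the gene except its 5′ end. It had 61.8 and 59.8 CPM in the control libraries, 54.4 and 52.3 with P, 67.2 and 61.7 with L, 51.6 and 54.2 with H, 66.4 and 65.0 with S, 69.9 and 67.8 with cG and 74.2 and 68.1 with Z. With the pairs it had 62.5 and 63.6 with PL, 53.7 and 48.6 with PH, 59.6 and 58.1 with LH, 68.3 and 71.7 with PS, 67.6 and 71.7 with PcG, 67.4 and 72.9 with ScG, 97.6 and 94.9 with ZS and 90.4 and 89.4 with ZcG. The triplets gave 63.5 and 69.5 with PLH, 71.1 and 68.7 with PScG and 94.4 and 96.0 with ZScG. The 6 libraries of ZS, ZcG and ZScG, 89.4 to 97.6 CPM, lay above all 30 others. That grouping was chosen after the values were seen, and the share of all peaks that separate in this way was not counted. The rise was 0.66 ± 0.09 (SE), adjusted p = 2.8e-09 with ZS, 0.56 ± 0.10 (SE), adjusted p = 7.5e-07 with ZcG and 0.65 ± 0.10 (SE), adjusted p = 6.5e-09 with ZScG, and zymosan alone gave 0.22 (adjusted p = 0.17). With PH it was lower (-0.25 ± 0.10 SE, adjusted p = 0.038). The peak over the annotated start, peak 7 at chr8:70697495-70697846, held 3 counts in control, all in 1 library, and was higher in 15 stimulations, of which 5 remained without control replicate 1 and 15 without control replicate 2. With LPS its level was 11.5 times the control level (95% counting interval 3.76 to 57.6), and P and Z did not pass, at 1.49 (adjusted p = 0.3) and 0.60 (adjusted p = 0.84). Peaks 4 and 10 were each called in 1 stimulation, P (1.01, adjusted p = 0.015) and PScG (1.19, adjusted p = 0.04). The P call was lost without either P library and without control replicate 1, at 0.75 (adjusted p = 0.21). The PScG call was lost with DESeq2 and without any 1 of the 4 libraries, down to 0.89 (adjusted p = 0.27) without control replicate 2. On total counts peak 8 had 12 higher and 0 lower calls, and PH gave 0.08 (adjusted p = 0.6). The PH call of peak 8 was also lost with median-of-ratios factors, without either control library and without PH replicate 2, at -0.18 (adjusted p = 0.3).

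**Figure D4:**
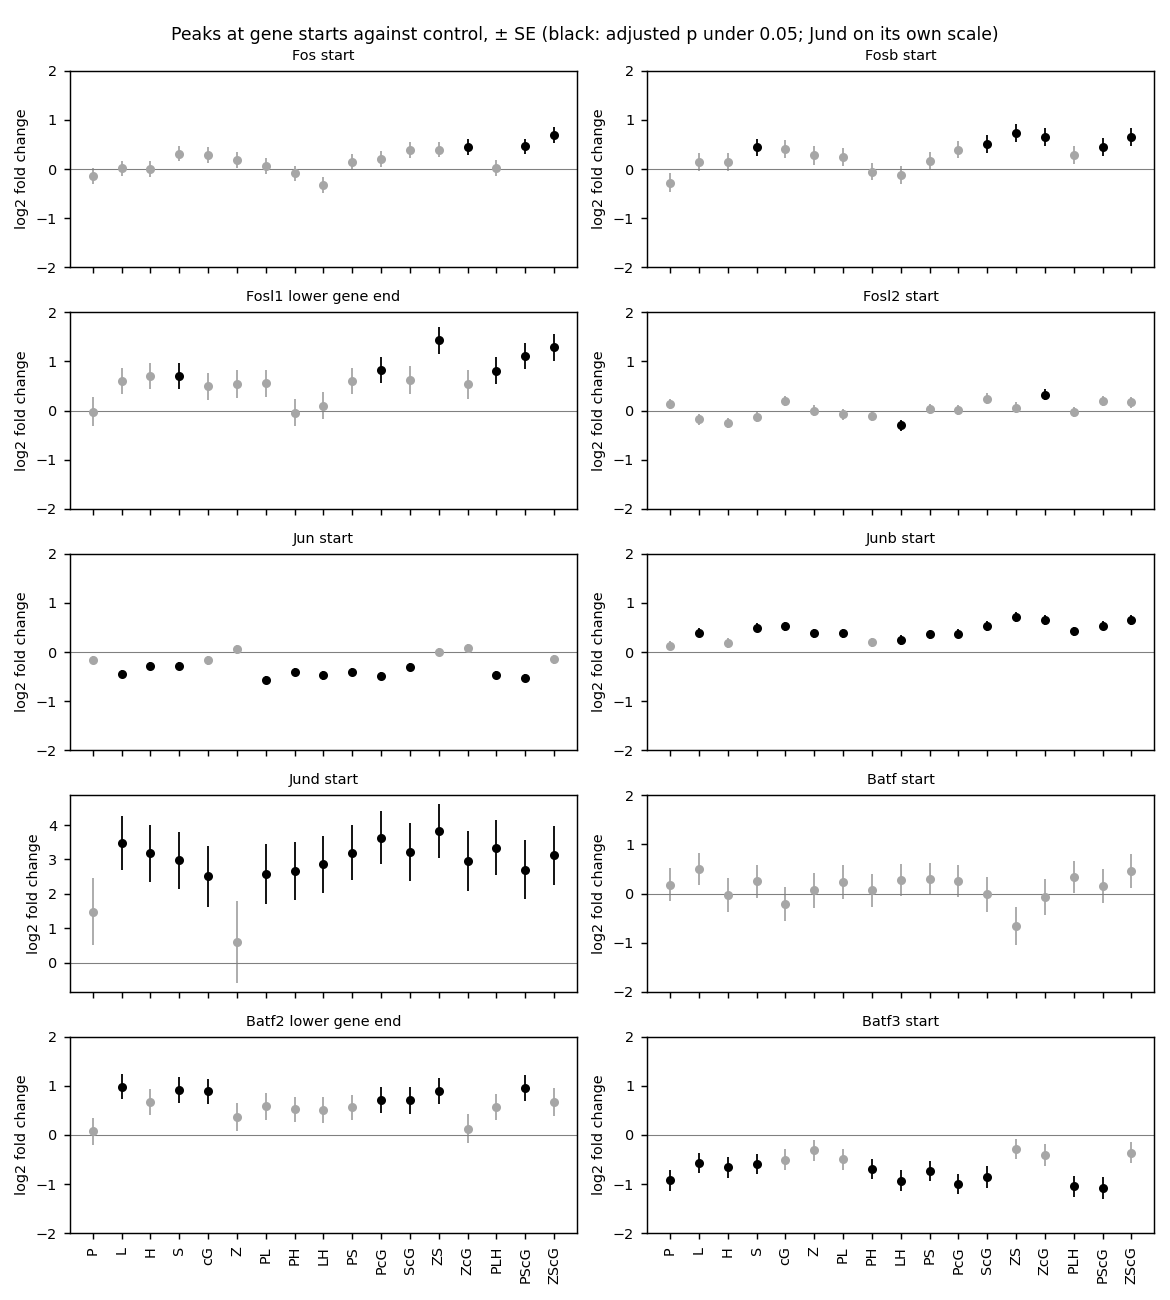
Log2 fold change against control (± SE) in the 17 stimulations of the start peak of each gene, or of the peak over the lower end for Fosl1 and Batf2, black where adjusted p is under 0.05. Under TMM scaling Junb and Fosb lie mostly on the higher side and Jun and Batf3 on the lower side, Jun moving to both sides of 0 on total counts, and the Jund values are imprecise because that peak held 3 counts in control.

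Other peaks outside the naming rule were strongly higher in several groups, and are given because they stood out in the plot of all members. Fosl2 peak 9 had 4 control counts and 0.437 and 0 CPM in control, and was called higher in 11 stimulations, to 2.60 and 3.27 CPM with PScG (log2 fold change 3.77), of which 11 remained without control replicate 1 and 1 without control replicate 2. Fosl2 peak 13 had 6 control counts and 0.437 and 0.193 CPM in control, and was called higher in 13 stimulations, to 2.01 and 2.21 CPM with ZScG (log2 fold change 2.73), of which 10 remained without control replicate 1 and 2 without control replicate 2. Both lie downstream of the gene, on either side of peaks 10 and 11, and both are weak peaks. Fosl2 peak 2 had 60 control counts and 2.84 and 3.28 CPM in control, and was called higher in 14 stimulations, to 7.96 and 7.97 CPM with PLH (log2 fold change 1.37), of which 8 remained without control replicate 1 and 11 without control replicate 2. Fos peak 2 had 4 control counts and 0.328 and 0.0965 CPM in control, and was called higher in 5 stimulations, to 1.35 and 1.14 CPM with PScG (log2 fold change 2.53), of which 4 remained without control replicate 1 and 0 without control replicate 2. Fosb peak 11 had 79 control counts and 2.84 and 5.11 CPM in control, and was called higher in 10 stimulations, to 11.9 and 12.0 CPM with ZS (log2 fold change 1.57), of which 2 remained without control replicate 1 and 10 without control replicate 2. These 3 lie upstream of their genes. Jund peak 11 had 18 control counts and 0.437 and 1.35 CPM in control, and was called higher in 8 stimulations, to 4.84 and 3.59 CPM with ZS (log2 fold change 2.19), of which 2 remained without control replicate 1 and 8 without control replicate 2. Batf peak 1 had 36 control counts and 0.874 and 2.70 CPM in control, and was called higher in 10 stimulations, to 6.20 and 5.31 CPM with PLH (log2 fold change 1.65), of which 2 remained without control replicate 1 and 10 without control replicate 2. Batf peak 13 had 4 control counts and 0.219 and 0.193 CPM in control, and was called higher in 4 stimulations, to 1.80 and 1.64 CPM with PScG (log2 fold change 3.00), of which 2 remained without control replicate 1 and 1 without control replicate 2. The last 2 lie on either side of the Batf gene, 20.09 kb before and 40.26 kb after the start. The fold of Fosl2 peak 9 with PScG was 2.73 (adjusted p = 0.0043) without control replicate 2, that of Fos peak 2 with PScG 1.89 (adjusted p = 0.15) without the same library, that of Jund peak 11 with ZS 3.24 and that of Batf peak 1 with PLH 2.71 without it. Fold sizes at such weak peaks are imprecise.

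By position, 7 of 8 peaks over an annotated start, 2 of 2 over an end of the genes without strand, 13 of 15 other peaks in gene bodies, 21 of 34 upstream, 24 of 35 downstream and 9 of 15 in flanks of the genes without strand passed the F-test. Of all tested peaks at any position, 62.5% passed it, and the upstream, downstream and flank counts lie near that share. Shares of all peaks by position are not given, and those of the members were not tested against one another. The opened Batf and Fosl2 peaks lie in that gene or have it as nearest gene, whereas several opened peaks at Junb, Fosb and Fosl1 lie over or nearer to Hook2, Prdx2, Rtn2, Ccdc85b, Fibp or AI837181.

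Comparisons of each pair with its single ligands use no control library. Adding P to H, S or cG, or LPS to H, opened the Batf cluster, whereas PL against L called none of its peaks. PH against H changed 11 of 109 peaks (7 higher, 4 lower), against 7.55% of all peaks. LH against H changed 6 of 109 peaks (6 higher, 0 lower), against 3.78% of all peaks. PS against S changed 6 of 109 peaks (6 higher, 0 lower), against 2.93% of all peaks. In each of these 3, and in PcG against cG, Batf peaks 8 to 12 were all higher, by 2.60, 2.52, 2.52 and 3.32 at peak 9. PcG against cG changed 12 of 109 peaks (7 higher, 5 lower), against 9.11% of all peaks, among them Jun peak 2 and Junb peak 5, which were lower, at -0.31 (adjusted p = 0.0055) and -0.46 (adjusted p = 7.3e-05). All of these groups are in the low-share set. The reverse addition, of S or cG to P, called members at shares near or slightly above those of all peaks. PS against P changed 20 of 109 peaks (14 higher, 6 lower), against 18.1% of all peaks. PcG against P changed 20 of 109 peaks (14 higher, 6 lower), against 14.7% of all peaks. Both opened Batf peak 9 further, by 1.22 ± 0.25 (SE), adjusted p = 7.3e-05 with S and 0.81 ± 0.26 (SE), adjusted p = 0.018 with cG. The latter was lost without P replicate 2, at 0.47 (adjusted p = 0.38), without either PcG library and with DESeq2. Without H replicate 1 the rise of peak 9 was 4.04 for PH against H and 3.95 for LH against H. Among the other Batf calls, those that were lost without 1 library were PS against S at peak 8 (without S replicate 2) and peak 11 (without PS replicate 1 or S replicate 1), PcG against cG at peak 11 (without PcG replicate 1 or cG replicate 1), and LH against H at peak 12 (without H replicate 2), at 1.49 (adjusted p = 0.06), 0.52 (adjusted p = 0.12), 0.44 (adjusted p = 0.13) and 1.06 (adjusted p = 0.057). The Jun call in PcG against cG was -0.23 (adjusted p = 0.11) on total counts, -0.29 (adjusted p = 0.079) without PcG replicate 2 and -0.26 (adjusted p = 0.13) without cG replicate 2.

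Fosl2 peaks 10 and 11 went down when a second ligand joined P. The log2 difference of peak 10 from P alone was -0.68 ± 0.20 (SE), adjusted p = 0.018 in PL, -0.95 ± 0.20 (SE), adjusted p = 8.2e-05 in PS and -0.59 ± 0.19 (SE), adjusted p = 0.026 in PcG, and PH against P gave -0.47 (adjusted p = 0.2). Peak 11 was lower in all 4, from -0.65 in PH to -1.34 in PS. The same libraries stayed above those of the other single ligand at peak 10, with PL against L at 0.79 (adjusted p = 0.037) and PS against S at 1.23 (adjusted p = 3.2e-05). PL against P changed 9 of 109 peaks (5 higher, 4 lower), against 8.46% of all peaks. PL against L changed 1 of 109 peaks (1 higher, 0 lower), against 1.13% of all peaks, that peak being Fosl2 peak 10. PH against P changed 2 of 109 peaks (1 higher, 1 lower), against 2.66% of all peaks. LH against L changed 0 of 109 peaks (0 higher, 0 lower), against 0.0645% of all peaks, with 11 at an unadjusted p under 0.05. DESeq2 also called 0. The lower calls rest in part on P replicate 2, without which peak 10 gave -0.45 (adjusted p = 0.36) for PL and -0.36 (adjusted p = 0.4) for PcG, and peak 11 -0.59 (adjusted p = 0.15) for PL, -0.46 (adjusted p = 0.43) for PH and -0.59 (adjusted p = 0.095) for PcG. DESeq2 did not call peak 10 in PL or PcG, at -0.69 (adjusted p = 0.064) and -0.60 (adjusted p = 0.083), nor peak 11 in PH, at -0.64 (adjusted p = 0.086), and these were also lost without 1 or either library of the pair. The PL against L call was 0.80 (adjusted p = 0.077) with DESeq2, 0.68 (adjusted p = 0.096) on total counts, 0.86 (adjusted p = 0.14) without L replicate 1, 0.71 (adjusted p = 0.36) without L replicate 2 and 0.53 (adjusted p = 0.51) without PL replicate 1. PS against P kept its call at both peaks whichever library was left out. Counts of members fell by over 1.5 times without 1 library in several of these comparisons, to 4 of 9 for PL against P (without PL replicate 2), 0 of 1 for PL against L (without L replicate 1), 0 of 2 for PH against P (without PH replicate 1), 7 of 11 for PH against H (without H replicate 1), 10 of 20 for PS against P (without PS replicate 2), 5 of 20 for PcG against P (without PcG replicate 1) and 7 of 12 for PcG against cG (without PcG replicate 2).

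The Jund gene body was more open when zymosan was combined with S or cG than with either ligand alone. Jund peak 8 was higher in ZS than in Z (0.44 ± 0.09 SE, adjusted p = 2.4e-04) and than in S (0.55 ± 0.09 SE, adjusted p = 6.5e-06), and higher in ZcG than in Z (0.34 ± 0.10 SE, adjusted p = 0.01) and than in cG (0.38 ± 0.09 SE, adjusted p = 0.0067). The interaction was 0.33, 95% interval 0.06 to 0.59, for ZS and 0.16, 95% interval -0.11 to 0.43, for ZcG, neither called. ZS against Z changed 20 of 109 peaks (20 higher, 0 lower), against 15.2% of all peaks. ZS against S changed 4 of 109 peaks (2 higher, 2 lower), against 2.53% of all peaks. ZcG against Z changed 8 of 109 peaks (6 higher, 2 lower), against 9.07% of all peaks. Fosl2 peaks 10 and 11 were lower in ZcG than in Z, with log2 differences of -0.94 and -1.14. ZcG against cG changed 7 of 109 peaks (1 higher, 6 lower), against 2.87% of all peaks. ScG against S changed 0 of 109 peaks (0 higher, 0 lower), against 0.579% of all peaks, with 10 at an unadjusted p under 0.05. ScG against cG changed 8 of 109 peaks (2 higher, 6 lower), against 4.94% of all peaks. ZS against Z, ZcG against cG and ScG against S or cG cross the mitochondrial-share sets. ScG against S gave 1 call with DESeq2. On total counts Jund peak 8 in ZcG against cG was -0.01 (adjusted p = 0.95), and the call was also lost without either ZcG library. ZcG against Z was 0.30 (adjusted p = 0.13) without Z replicate 2. The ZcG against Z difference of Fosl2 peak 10 was -0.60 (adjusted p = 0.33) without Z replicate 2 and -0.58 (adjusted p = 0.3) without ZcG replicate 1, and that of peak 11 -0.82 (adjusted p = 0.096) without ZcG replicate 2. Counts fell to 1 of 8 for ScG against cG (without ScG replicate 2), 9 of 20 for ZS against Z (without ZS replicate 2), 2 of 4 for ZS against S (without S replicate 1), 4 of 8 for ZcG against Z (without Z replicate 2) and 1 of 7 for ZcG against cG (without cG replicate 2).

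**Figure D5:**
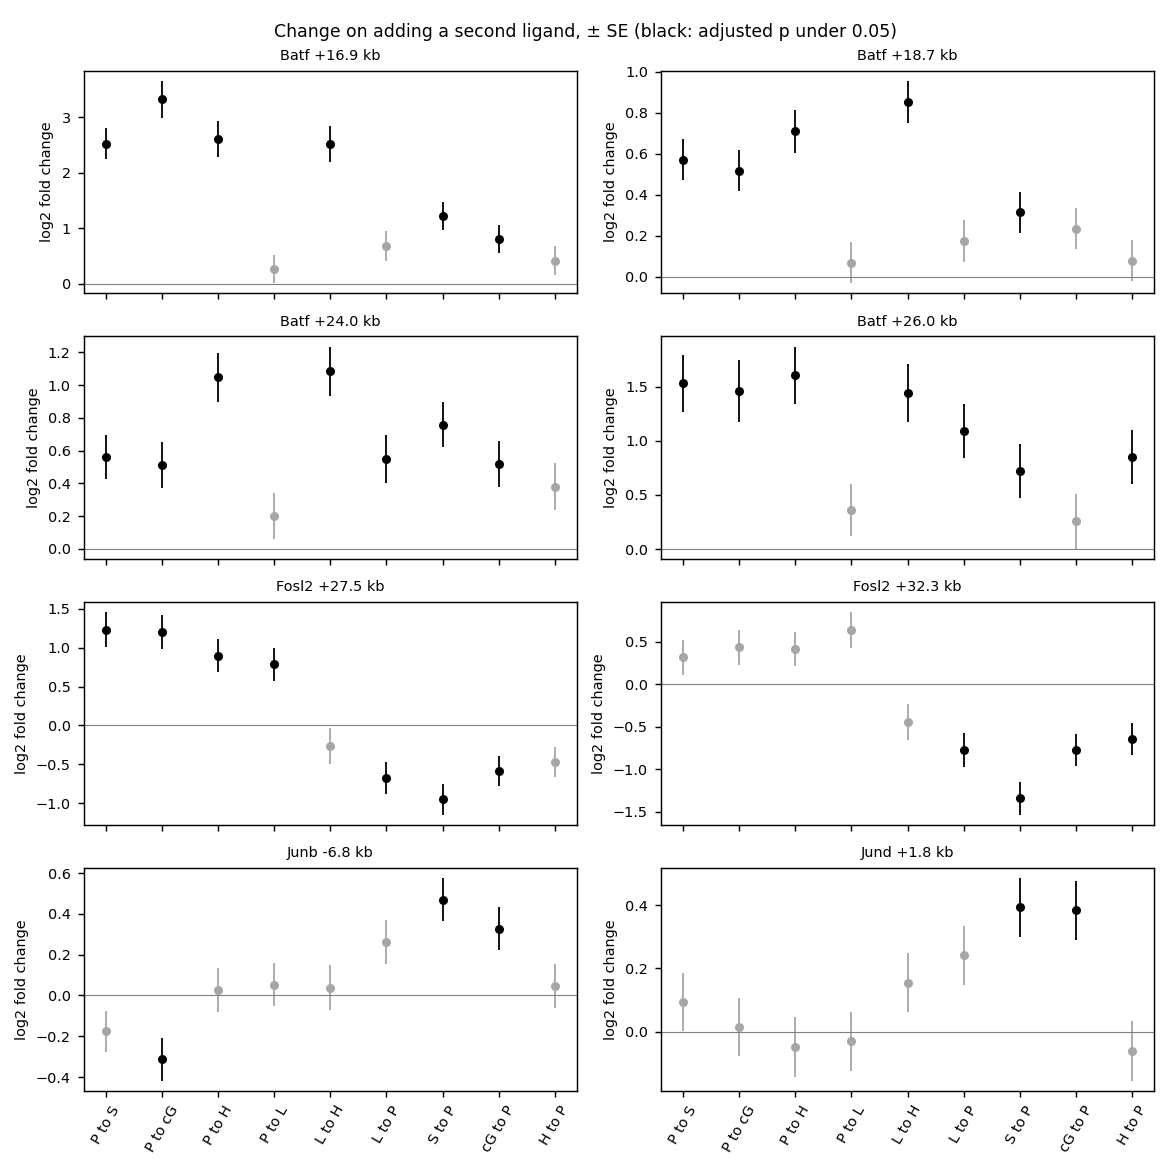
Log2 difference (± SE) when 1 ligand is added to another at 8 peaks, named by kb from the gene start; P to S is PS against S. Black points pass adjusted p under 0.05. At Batf +16.9 kb adding P to S gave 2.52, and at Fosl2 +27.5 kb adding S to P gave -0.95.

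An interaction is the log2 value of a pair minus those of its single ligands plus control, so a value below 0 means less than the sum of the single effects. For ScG it was called at 14 of 109 peaks (1 higher, 13 lower), against 14.4% of all peaks. They include Junb peaks 1, 3, 4, 6 and 7, Batf peaks 10 and 11 and Batf2 peaks 2 and 4, with -1.37 ± 0.28 (SE), adjusted p = 7.9e-05 at Batf2 peak 2. Those of Junb peaks 1, 3, 4 and 7 and Batf2 peak 4 were lost without 1 library, Junb peak 1 at -0.53 (adjusted p = 0.11) without ScG replicate 2, peak 3 at -1.06 (adjusted p = 0.17) without control replicate 2, peak 4 at -0.37 (adjusted p = 0.081) without ScG replicate 1, peak 7 at -0.47 (adjusted p = 0.15) without control replicate 1 and Batf2 peak 4 at -0.82 (adjusted p = 0.17) without S replicate 1. For PL the count was 8 of 109 peaks (2 higher, 6 lower), against 6.75% of all peaks. For LH it was 8 of 109 peaks (0 higher, 8 lower), against 4.88% of all peaks. Batf peak 9 had -2.99 ± 0.51 (SE), adjusted p = 5.1e-06 for PL, while Batf3 peak 6 had 1.00 ± 0.30 (SE), adjusted p = 0.022, above the sum, where P and LPS each lowered it. For PH the count was 3 of 109 peaks (0 higher, 3 lower), against 1.55% of all peaks. For PS it was 1 of 109 peaks (0 higher, 1 lower), against 4.59% of all peaks. For PcG the count was 2 of 109 peaks (0 higher, 2 lower), against 3.27% of all peaks. Fosl2 peak 11 was below the sum in all 3, at -1.70, -1.80 and -1.68. For ZS the count was 1 of 109 peaks (0 higher, 1 lower), against 3.43% of all peaks. For ZcG it was 4 of 109 peaks (0 higher, 4 lower), against 2.49% of all peaks. Junb peak 6 was below the sum in both, at -0.53 and -0.73. All of these share the control libraries, and each mixes libraries of both mitochondrial-share sets. Without P replicate 2 Batf3 peak 6 gave 0.79 (adjusted p = 0.19), and on total counts 0.57 (adjusted p = 0.23), and Junb peak 6 for ZS was not called without S replicate 1, at -0.41 (adjusted p = 0.24). Counts fell by over 1.5 times without 1 library, to 4 of 8 for PL (without P replicate 2), 1 of 3 for PH (without control replicate 1), 2 of 8 for LH (without control replicate 1), 1 of 2 for PcG (without control replicate 2), 9 of 14 for ScG (without control replicate 1) and 0 of 1 for ZS (without control replicate 2). On total counts the ScG values were lower still, at -1.25 for Batf peak 10.

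Adding a further ligand to a pair changed few members. PLH against PL changed 0 of 109 peaks (0 higher, 0 lower), against 0.000837% of all peaks, with 5 at an unadjusted p under 0.05. PLH against PH changed 2 of 109 peaks (2 higher, 0 lower), against 0.248% of all peaks, Fosl2 peak 7 (1.67, adjusted p = 0.0036) and Jund peak 8 (0.38, adjusted p = 0.034). PLH against LH changed 1 of 109 peaks (1 higher, 0 lower), against 0.546% of all peaks, Fosl2 peak 10 (0.82, adjusted p = 0.047). Adding P to ScG had the most calls. PScG against ScG changed 8 of 109 peaks (7 higher, 1 lower), against 4.53% of all peaks, and Batf peaks 8 to 12 were among the higher ones, peak 9 by 2.12 ± 0.29 (SE), adjusted p = 7.9e-09. PScG against PcG changed 1 of 109 peaks (1 higher, 0 lower), against 0.412% of all peaks, Junb peak 6 (0.50, adjusted p = 0.0047). PScG against PS changed 0 of 109 peaks (0 higher, 0 lower), against 0.602% of all peaks, with 14 at an unadjusted p under 0.05. At Batf3 peak 11 ZScG gave a lower level than ZcG (-0.66 ± 0.19 SE, adjusted p = 0.027) or ScG (-0.71 ± 0.18 SE, adjusted p = 0.027). ZScG against ZcG changed 1 of 109 peaks (0 higher, 1 lower), against 2.79% of all peaks. ZScG against ScG changed 2 of 109 peaks (1 higher, 1 lower), against 0.772% of all peaks, the other being Jund peak 8. ZScG against ZS changed 0 of 109 peaks (0 higher, 0 lower), against 0.0586% of all peaks, with 8 at an unadjusted p under 0.05. PScG against ScG and ZScG against ZS cross the mitochondrial-share sets. DESeq2 called 0 in PLH against PL and ZScG against ZS and 1 in PScG against PS. The calls of PLH against LH, PScG against PcG and ZScG against ZcG or ScG at Batf3 peak 11 were lost whichever of the 4 libraries was left out, as was that of Jund peak 8 in PLH against PH, and that of Fosl2 peak 7 was lost without PH replicate 2, at 1.19 (adjusted p = 0.37).

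Other genes of the pathway were read at peaks within 1 kb of their starts. The list held 28 genes and 40 such peaks, namely 11 kinases above AP-1, 11 other leucine zipper genes, the BATF partners Irf4 and Irf8, and Srf, Elk1, Elk3 and Elk4, which act at serum response elements. Of the 40 start peaks, 16 were higher and 18 lower in at least 1 stimulation, against 35% and 34.1% of all tested peaks. The higher and lower counts were 1 and 11 with P, 1 and 7 with L, 2 and 5 with H, 6 and 8 with S, 7 and 3 with cG and 3 and 1 with Z for the single ligands, 1 and 10 with PL, 0 and 13 with PH, 0 and 9 with LH, 7 and 11 with PS, 6 and 11 with PcG, 5 and 5 with ScG, 10 and 4 with ZS and 7 and 1 with ZcG for the pairs, and 3 and 12 with PLH, 9 and 10 with PScG and 8 and 6 with ZScG for the triplets, beside the shares of all peaks given above. The small MAF genes, whose products lack an activation domain, opened, with, at the most often called start peak of each, Maff in 12 stimulations (to 1.11 with ZScG), Mafg in 8 stimulations (to 0.74 with ZScG) and Mafk in 6 stimulations (to 0.64 with cG). Elk3, a repressor of serum response genes, rose in 12 stimulations (to 1.10 with PScG) at 1 start peak, and its other start peak was called in none. Of the 17 start peaks of the kinases, 9 were lower and 6 higher in some stimulation, against 34.1% and 35% of all tested peaks. Map2k6 in 14 stimulations (to -1.46 with PScG) and Mapk8 in 12 stimulations (to -0.58 with PH) were lower, the latter being JNK1, which phosphorylates JUN. The other Map2k6 start peak was called in none. Mapk3, at 1 of its 3 start peaks with a mean of 1.77 CPM, was higher in 9 (to 2.62 with ZS), Map2k3 in 6 (to 0.50 with ScG) and Mapk14, which encodes a p38 kinase, in 3 (to 0.48 with ZScG). The other start peak was higher in 2 for Map2k3 and in 0 for Mapk14. The BATF partners differed, with Irf4 in 12 stimulations (to -1.13 with PH) lower and Irf8 in 7 stimulations (to 0.50 with ZcG) higher. For Irf8 this was the most often called start peak, and its other start peaks were higher in 0 or 1 stimulation and lower in none. Nfe2l2, the oxidative stress factor, was lower in 13 stimulations (to -0.59 with PLH). Atf3, itself a stress-induced AP-1 partner, was called higher in 2. On total counts all values move by about the shift of the median given above.

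The peaks elsewhere in the genome whose group means ran most like those of the leading peak of each subfamily were found by Pearson correlation of mean log2 CPM over the 18 groups, given as a description, since the groups share control and depth. For Batf peak 9 the 5 nearest genes and their r were Mfhas1 (0.973), Gm5544 (0.973), Tmcc3 (0.970), Fut8 (0.970), Il6 (0.968), and 344 peaks had r above 0.9. For Fosl2 peak 10 they were Tet2 (0.944), Nsmce2 (0.944), Crcp (0.943), Lox (0.938), Creb5 (0.935), with 44 above 0.9. For Jund peak 8 they were Baiap2 (0.941), Kif23 (0.934), Snx29 (0.933), Pias1 (0.933), Ctnnb1 (0.931), with 32 above 0.9. A nearest gene can lie far off, Il6 by 91914 bp.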

How the data were processed

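The authors deposited a table of read counts per ATAC-seq peak for all 36 libraries, with peak positions on mm10. Bowtie2 2.2.9, MACS2, bedtools and featureCounts are named in the submitters' processing notes, and other settings were not given in the sources used here. The counts were analysed as deposited. The 1 peak over the mitochondrial genome was left out of library sizes and tests. Peaks with low counts were dropped by filterByExpr by group (minimum count 10), which removed 286 and left 119464. Library sizes were adjusted with TMM factors, and the fit used edgeR 4.0.16 (R 4.3.3, quasi-likelihood, trended dispersion, 18 residual degrees of freedom), with 1 coefficient per group and 50 contrasts. P-values were Benjamini-Hochberg adjusted over all tested peaks within a contrast, with calls under 0.05. DESeq2 1.42.0, other scalings, no filter, a replicate block and leaving out each library were the alternatives. The fit was tested on simulated data of all 119464 peaks for S against control, where it called 20 of 100 peaks changed by 2 times and 3 of 100 changed by 1.5 times, with 1 false call, so a peak that was not called may still differ. In the simulated data no other peaks changed and every peak had the same dispersion. In the real S against control 14.1% of all peaks were called higher and 13.8% lower. The simulated rates therefore do not give the sensitivity of the real contrasts. The peaks named for each gene are the start peak and up to 3 more with the lowest F-test p, and exceptions are stated. The members and lists were chosen with earlier results of these data known. One gene of the pathway list is not reported here by name.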

Additional observations from a re-analysis of the deposited data

Results flagged for a closer look

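The effect of a ligand differed with and without its partner, by the interaction term of the fit, at 14 members for ScG, at 8 for PL and 8 for LH, at 4 for ZcG, at 3 for PH, at 2 for PcG and at 1 each for ZS and PS. The share of members was 12.8% for ScG, 7.34% for PL and LH, 3.67% for ZcG and 2.75% for PH. It was 1.83% for PcG and 0.917% for ZS and PS. Over all peaks the shares were 14.4% for ScG, 6.75% for PL, 4.88% for LH, 2.49% for ZcG and 1.55% for PH. They were 3.27% for PcG, 3.43% for ZS and 4.59% for PS, so several member shares lie near or below those of all peaks. The named peak with the lowest p for each pair had a log2 interaction of -2.99 (Batf peak 9, PL), -1.70 (Fosl2 peak 11, PH), -1.32 (Batf2 peak 2, LH), -1.80 (Fosl2 peak 11, PS), -1.68 (Fosl2 peak 11, PcG), -1.37 (Batf2 peak 2, ScG), -0.53 (Junb peak 6, ZS) and -2.06 (Fosl2 peak 11, ZcG). Without H replicate 1 the LH value was -0.84 (adjusted p = 0.13), and without S replicate 1 the ZS value was -0.41 (adjusted p = 0.24), both by edgeR. Control is in all of these terms, and the part of the mitochondrial share was not tested. For all pairs but ZS, the interaction cannot be told apart from what came with that share.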

How the results depend on the processing

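The scaling mattered most, and the shares of all peaks called on total counts are not given beside the counts of members below. On total counts outside the mitochondrial genome, the number of members called against control was 53 for PS, 46 for S, 46 for L and 37 for cG. Against single ligands it was 31 for ZS against Z, 25 for ZcG against cG, 16 for ScG against cG, 9 for ScG against S and 8 for ZS against S, and for triplets 20 for PScG against ScG, 3 for ZScG against ZcG and 1 for ZScG against ZS. For interactions it was 40 for ScG, 22 for LH, 18 for PL, 14 for ZcG, 9 for PcG, 7 for PH, 6 for PS and 4 for ZS. In that scaling 12 of 315 called log2 fold changes of the named peaks changed sign, to 0.00450 with PS and 0.0854 with S at Jun peak 2, 0.00496 with LH at Fosl2 peak 4, 0.0839 with PH at Jund peak 8, 0.118 with L, 0.0194 with PH, 0.0315 with PLH, 0.0827 with PL, 0.182 with PS, 0.0723 with PScG and 0.0735 with PcG at Junb peak 5 and 0.00142 with PcG at Batf3 peak 1, and 46 more lost the call. With DESeq2 the counts were 5 for the PcG interaction, 5 for ScG against cG, 3 for ZScG against ZcG, 1 for PScG against PS, 1 for PLH against PH, 1 for ScG against S and 0 for PL against L. Median-of-ratios size factors and no filter on low counts kept all 52 counts within 1.5 times. Leaving out 1 library at a time, where the lone library left in a group is assumed to vary like the others, gave against control 29 to 40 for PScG, 29 to 32 for PLH, 21 to 32 for ZS, 26 to 31 for PcG, 24 to 29 for PS, 23 to 36 for ZScG, 22 to 30 for PL, 18 to 26 for ScG, 13 to 25 for S, 14 to 24 for L, 15 to 26 for PH, 12 to 23 for LH, 12 to 20 for ZcG, 13 to 21 for P, 13 to 18 for cG, 2 to 12 for H and 4 to 5 for Z. Against single ligands it gave 10 to 14 for PS against P, 9 to 19 for ZS against Z, 5 to 14 for PcG against P, 7 to 10 for PcG against cG, 7 to 10 for PH against H, 4 to 6 for PL against P, 4 to 8 for ZcG against Z, 1 to 6 for ScG against cG, 1 to 7 for ZcG against cG, 5 to 6 for PS against S, 5 to 5 for LH against H, 2 to 3 for ZS against S, 0 to 2 for PH against P, 0 to 1 for PL against L, 0 to 1 for ScG against S and 0 to 0 for LH against L. For interactions it gave 9 to 14 for ScG, 4 to 8 for PL, 2 to 9 for LH, 3 to 5 for ZcG, 1 to 4 for PH, 1 to 4 for PcG, 1 to 3 for PS and 0 to 2 for ZS, and for triplets 5 to 6 for PScG against ScG, 0 to 1 for ZScG against ScG, 0 to 1 for PLH against PH, 0 to 0 for ZScG against ZcG, 0 to 0 for PScG against PcG, 0 to 0 for PLH against LH, 0 to 1 for ZScG against ZS, 0 to 0 for PScG against PS and 0 to 0 for PLH against PL. The named peaks had 194 (without control replicate 1) to 315 calls in place of 315, and the F-test called 72 to 79 members. The alternatives for the F-test were chosen after seeing the data. The 153 correlations between same-numbered libraries of different groups, after removing group means, lay between -0.04 and 0.03. Such values cannot settle whether these libraries shared a mouse, culture or day, since counting noise at weak peaks also lowers them. A replicate block moved 1 count, PLH against LH, from 1 to 0. The causes of these changes were not tested. Weak peaks limit precision, since 3 members had 3 or fewer counts in control.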
